A study of Drosophila melanogaster with 8 samples.

Results

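The Cpr genes of Drosophila melanogaster encode cuticular proteins of the Rebers-Riddiford family, each named after its place on the polytene chromosome map. They were taken here as all genes whose name in the deposited tables starts with Cpr and a digit, which gave 70 of the 17655 genes listed, with 92 transcripts between them. Of the 70 genes, 20 reached 5 FPKM (fragments per kilobase of transcript, also corrected for sequencing yield) in at least 1 library and are described gene by gene. The other 50 are counted. The annotation text in the tables names an insect cuticle protein domain for all 70, and the chitin-binding Rebers-Riddiford consensus itself for 55 of them, 14 of the 20 described genes and 41 of the 50 others.

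RNA was measured in 8 libraries of 15-day-old adults of Canton S, a wild-type laboratory strain, with no transgene named in the labels. Flies of each sex had spent 7 days on a high-fat diet with QG (quercetin glucoside, a plant flavonol glycoside), a high-fat diet with EGCG (epigallocatechin gallate, a tea catechin), a plain high-fat diet or a normal diet. These groups are called HFD+QG, HFD+EGCG, HFD and ND. All flies then had 2 h on standard food before collection and the bodies without wings or legs gave 1 library per diet and sex. Neither the doses, the make-up of the diets nor the number of flies in a library is given in the sources used here. The absence of replicate libraries is the main limit on what follows, since p-values measure the spread between libraries of different diets or sexes, which may in part be technical.

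Insect cuticle is a layered composite of chitin fibres and proteins, and the Rebers-Riddiford consensus is the stretch through which many of these proteins bind chitin. The family is expressed by the epidermis and other cuticle-forming cells in sharp waves around each moult, under control of the moulting hormone ecdysone, and the adult cuticle is for the most part laid down in the pupa. In Drosophila the corneal lens of the compound eye is also a cuticle, and Cpr72Ec and Cpr66D are known components of it, alongside Crystallin (Crys, itself a Rebers-Riddiford protein) and Retinin.

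Most of the family was listed at 0 or at low levels in these adult bodies, where a listed 0 can also be a failed estimate. A total of 37 of the 70 genes were listed at 0 in all 8 libraries, and 13 more lay above 0 but under 5 FPKM. Only 14 genes reached 10 FPKM, 5 reached 50 FPKM and 3 reached 100 FPKM in any library, namely Cpr65Au, Cpr72Ec and Cpr67Fb. The 5 highest genes of a library held between 71.95% and 82.53% of its summed family FPKM. At the edge of the rule, Cpr47Ea, Cpr73D and Cpr66Cb peaked at 5 FPKM and were kept, whereas Cpr78E and Cpr100A peaked at 4 FPKM and were not.

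Many of the genes sit in clusters, while others, such as Cpr67B and Cpr66D, are the only member of their cytological division. Within the clusters that hold a described gene, levels were unequal. Of 7 genes at 65A on chromosome arm 3L, Cpr65Au reached 171 FPKM and the other 6 were listed at 0 throughout. At 72E and 67F, likewise on 3L, 1 gene of 3 was described and the other 2 were at 0. The 49A cluster on 2R (8 genes) and the 47E cluster on 2R (7 genes) each held 3 described genes and 4 listed at 0. The clusters that hold Cpr64Aa, Cpr76Ba and Cpr78Ca had no gene at 5 FPKM. The described genes lay on 2R (9), 3L (10) and 3R (1). In the annotation text, late pupal stages were named among the times of peak expression for 13 of the 20 described genes and 16 of the 50 others, and larval stages for 5 of 20 and 27 of 50. Adult stages were named for 3 of 20 and 1 of 50.

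**Figure D1:**
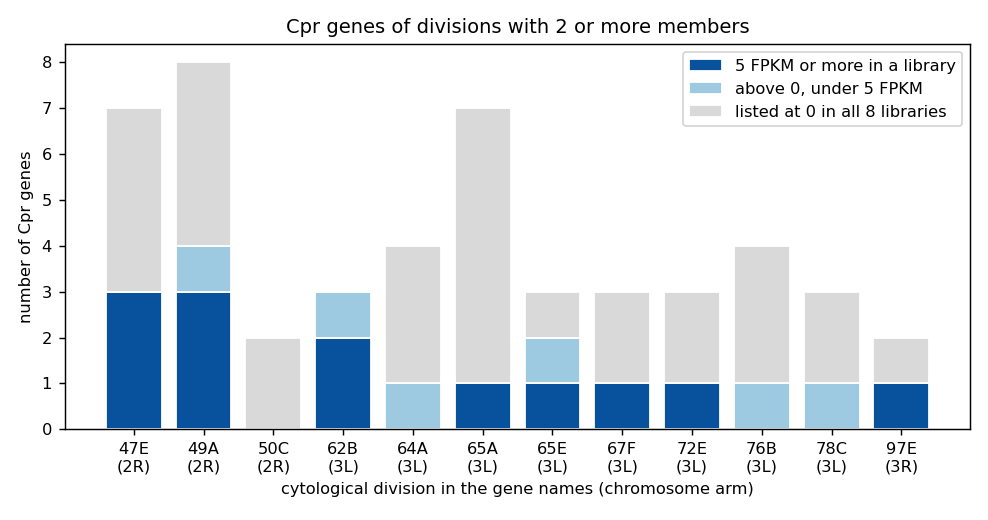
Number of Cpr genes (vertical axis) in each cytological division with 2 or more members (horizontal axis, chromosome arm in brackets), split into genes at 5 FPKM or more in a library, genes above 0 but under 5 FPKM, and genes listed at 0 in all 8 libraries. The 47E and 49A clusters hold 3 described genes each, and 6 of the 7 genes at 65A were listed at 0.

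Summed over the family, females had 378 (HFD+QG), 439 (HFD+EGCG), 426 (HFD) and 332 FPKM (ND). Males had 688 (HFD+QG), 684 (HFD+EGCG), 688 (HFD) and 689 FPKM (ND). As a share of all FPKM of the library, this was 0.0373% to 0.0487% in females and 0.0688% to 0.0742% in males, so the sexes did not overlap. The leading gene was Cpr67B, Cpr72Ec or Cpr65Au in females and Cpr72Ec or Cpr65Au in males. Between 20 and 21 members were above 0 in a female library and between 29 and 31 in a male library. The count over all genes was also lower in females, at 9473 to 9844 above 0 against 12758 to 12892 in males. The member counts are therefore not read as a trait of the family.

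**Figure D2:**
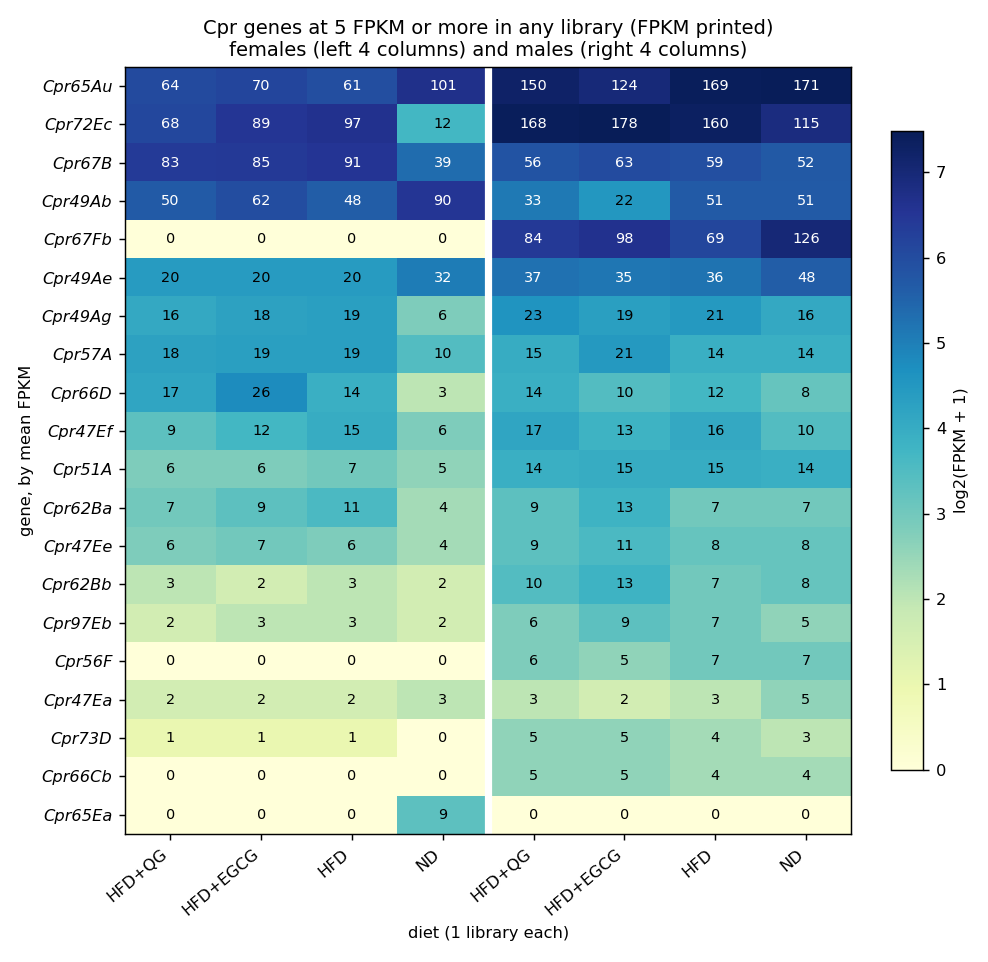
FPKM (printed) of the 20 described Cpr genes, ordered by mean over the 8 libraries, in each diet (columns, females left and males right); the colour runs with log2(FPKM + 1). The female ND column differs from the 3 other female columns in Cpr72Ec, Cpr67B and Cpr66D, and Cpr67Fb, Cpr56F and Cpr66Cb are listed at 0 in every female column.

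Females were first compared with males, with the 4 diets serving as repeats within a sex. Every member called by the test in the fit described here was lower in females, while Cpr49Ab and Cpr67B were called higher under some other settings. Because each sex has its own deposited table, and scaling between the tables is not stated, sex and table cannot be told apart. In whole-body RNA, fewer cells of a type and less RNA per cell cannot be told apart either.

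Cpr65Au (3L:6131242-6132109, minus strand), the gene with the highest mean, is annotated with peaks in late pupae and in adults of both sexes. It had 64 (HFD+QG), 70 (HFD+EGCG), 61 (HFD) and 101 FPKM (ND) in females, against 150 (HFD+QG), 124 (HFD+EGCG), 169 (HFD) and 171 FPKM (ND) in males. Every female library lay below every male library, and the means were 74.0 ± 18.4 FPKM in females and 153.5 ± 21.8 FPKM in males (SD over the 4 diets). On the log2(FPKM + 1) scale the difference was -1.06 ± 0.14 (SE), with an adjusted p of 0.00255 by limma. Cpr49Ae (2R:12402216-12405108, plus strand), a late pupal gene, also did not overlap between the sexes. It had 20 FPKM in each of the 3 female high-fat libraries and 32 FPKM in female ND, against 37 (HFD+QG), 35 (HFD+EGCG), 36 (HFD) and 48 FPKM (ND) in males, a log2 difference of -0.76 (limma, adjusted p = 0.00196).

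Genes at lower levels showed the same order. Cpr51A had 6 (HFD+QG), 6 (HFD+EGCG), 7 (HFD) and 5 FPKM (ND) in females, against 14 (HFD+QG), 15 (HFD+EGCG), 15 (HFD) and 14 FPKM (ND) in males. Its log2 difference of -1.15 rested on little spread within either sex (limma, adjusted p = 0.00112). Cpr51A lies across CG30197 on the other strand without a shared exon base. CG30197 was at 146 to 199 FPKM in females and 283 to 343 FPKM in males, and its part in the Cpr51A values was not tested. Cpr62Bb had 3 (HFD+QG), 2 (HFD+EGCG), 3 (HFD) and 2 FPKM (ND) in females, against 10 (HFD+QG), 13 (HFD+EGCG), 7 (HFD) and 8 FPKM (ND) in males (log2 difference -1.57, limma adjusted p = 0.00287). Cpr97Eb had 2 (HFD+QG), 3 (HFD+EGCG), 3 (HFD) and 2 FPKM (ND) in females, against 6 (HFD+QG), 9 (HFD+EGCG), 7 (HFD) and 5 FPKM (ND) in males (log2 difference -1.14, limma adjusted p = 0.00169). In none of these 3 genes did a female library reach the lowest male library. Cpr47Ee had 6 (HFD+QG), 7 (HFD+EGCG), 6 (HFD) and 4 FPKM (ND) in females, against 9 (HFD+QG), 11 (HFD+EGCG), 8 (HFD) and 8 FPKM (ND) in males (log2 difference -0.58, limma adjusted p = 0.0114). Cpr73D had 1 FPKM in each female high-fat library and 0 in female ND, against 5 (HFD+QG), 5 (HFD+EGCG), 4 (HFD) and 3 FPKM (ND) in males (log2 difference -1.62, limma adjusted p = 0.00143).

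In all, 10 of the 21 members that could be fitted were called lower in females and 0 higher, at a limma adjusted p under 0.05 over 9848 genes. Over all genes fitted the test called 27.3% lower and 39.6% higher in females. A gene entered this fit with 1 FPKM or more in at least 1 library of each sex, so genes listed at 0 in females are not in it. Besides the 7 above, the calls were Cpr72Ec (log2 difference -1.54, limma adjusted p = 0.0234) and 2 genes under 5 FPKM. The Cpr72Ec call was lost without HFD+QG or HFD+EGCG of either sex (limma, adjusted p between 0.0613 and 0.079), as was that of Cpr47Ee (between 0.0536 and 0.0545). The 2 low genes were Cpr100A, with 1 FPKM in every female library against 3 (HFD+QG), 4 (HFD+EGCG), 2 (HFD) and 3 FPKM (ND) in males, and Cpr62Bc, with 1 FPKM in every female library against 2 (HFD+QG), 2 (HFD+EGCG), 3 (HFD) and 2 FPKM (ND) in males. Across the 20 described genes, all 4 female libraries lay below all 4 male libraries in 11, above them in 0, and the sexes overlapped in 9. Of these 20, 7 reached 5 FPKM in males only and 1 in females only. Part of this order thus follows from the rule that admitted them. Over all 13710 genes at 1 FPKM or more in any library, 38.8% were lower in all females and 29.3% higher. The median log2 difference, females minus males, was -0.67 for the 20 genes and -0.24 for all genes. By the filter used for all genes, 1 FPKM in any library, there were 33 members. Of these, 18 were lower in all females and 0 higher, with a median of -0.75.

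Of the described genes, 5 had the higher mean FPKM in females, none of them with a call in the fit described here. Cpr66D averaged 15.0 FPKM in females and 11.0 FPKM in males, Cpr57A averaged 16.5 FPKM in females and 16.0 FPKM in males, and Cpr65Ea, above 0 in female ND alone, was not fitted. The other two were Cpr49Ab and Cpr67B. Cpr49Ab (2R:12378440-12379396, plus strand) had 50 (HFD+QG), 62 (HFD+EGCG), 48 (HFD) and 90 FPKM (ND) in females, against 33 (HFD+QG), 22 (HFD+EGCG), 51 (HFD) and 51 FPKM (ND) in males. The sexes overlapped, since female HFD+QG and HFD lay under 2 of the male libraries (log2 difference 0.69, limma adjusted p = 0.0556). For Cpr67B the log2 difference was 0.30 (limma, adjusted p = 0.219), and its values follow with the diets. After median-centring of the libraries the log2 differences were 0.42 for Cpr49Ab (limma, adjusted p = 0.155) and 0.03 for Cpr67B (limma, adjusted p = 0.908). Cpr49Ab was called higher in females in 5 of 16 alternative settings, which were a pseudocount of 5 (limma, adjusted p = 0.0499), a filter at 5 FPKM in a library of each sex (0.044), libraries rescaled to a common sum (0.0387), and without female HFD (0.0266) or male HFD (0.0292). Cpr67B was called higher without female ND or without male ND, with a log2 difference of 0.53 (limma, adjusted p = 0.00577 in each case).

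Against ND, the 3 high-fat libraries of a sex were then taken as repeats of a high-fat diet, whatever the polyphenol. The ND side of this comparison is 1 library per sex, assumed to vary like the others, so the diet and that library cannot be told apart. In females, the eye lens genes and several others were higher on high-fat diets and Cpr49Ae and Cpr65Au were lower. In males only Cpr49Ae passed the test with all libraries in the fit.

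Cpr72Ec (3L:16365894-16367340, minus strand), a structural protein of the corneal lens, had 68 (HFD+QG), 89 (HFD+EGCG) and 97 FPKM (HFD) in the female high-fat libraries, against 12 FPKM in female ND. In males it had 168 (HFD+QG), 178 (HFD+EGCG) and 160 FPKM (HFD), against 115 FPKM in male ND. Every high-fat library was above the ND library of its sex, 7.06-fold on the mean of the female libraries and 1.47-fold in males. The log2 change was 2.70 ± 0.20 (SE) in females (limma, adjusted p = 0.000949) and 0.55 ± 0.20 in males (limma, adjusted p = 0.156).

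Cpr66D (3L:8640439-8643584, plus strand), the other lens gene of the family, had 17 (HFD+QG), 26 (HFD+EGCG) and 14 FPKM (HFD) in females, against 3 FPKM in female ND. Males had 14 (HFD+QG), 10 (HFD+EGCG) and 12 FPKM (HFD), against 8 FPKM in male ND. The high-fat libraries again lay above ND in both sexes, and the log2 change was 2.28 ± 0.36 in females (limma, adjusted p = 0.0067) and 0.52 ± 0.36 in males (limma, adjusted p = 0.423).

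Of the genes for the other lens proteins, retinin was called and Crys was not. The retinin gene had 24 (HFD+QG), 26 (HFD+EGCG) and 26 FPKM (HFD) in females, against 9 FPKM in female ND. In males it had 43 (HFD+QG), 39 (HFD+EGCG) and 37 FPKM (HFD), against 19 FPKM in male ND. It rose in both sexes, by 1.40 on the log2 scale in females (limma, adjusted p = 0.000748) and by 1.02 in males (limma, adjusted p = 0.0133). Crys had 9 (HFD+QG), 14 (HFD+EGCG) and 21 FPKM (HFD) against 14 FPKM (ND) in females, and 10 (HFD+QG), 11 (HFD+EGCG) and 12 FPKM (HFD) against 14 FPKM (ND) in males. Its high-fat libraries lay on either side of ND in females (limma, adjusted p = 1 in females and 0.697 in males).

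Markers of other tissues moved in the same libraries. The labels do not say whether heads were kept, and ninaE, the main rhodopsin of the eye, was at 1047 FPKM or more in every library. All 10 photoreceptor genes on a list of eye markers were called higher in high-fat females, where 22.6% of all genes were, with a median log2 change of 1.40. In males 2 of 10 were called higher, where 5.65% of all genes were, with a median of 0.35. Their summed level was 4085 (HFD+QG), 4442 (HFD+EGCG) and 4578 FPKM (HFD) against 1708 FPKM (ND) in females, and 8009 (HFD+QG), 8117 (HFD+EGCG) and 8245 FPKM (HFD) against 6065 FPKM (ND) in males. All 6 muscle genes were called higher in females (median 1.32) and 0 of 6 in males (median 0.37). The 11 ovary and eggshell genes summed to 12560 (HFD+QG), 8433 (HFD+EGCG) and 6278 FPKM (HFD) in females, against 37065 FPKM in female ND, and to between 11 and 15 FPKM in males. Of 3 epidermis and oenocyte genes, 2 were called higher in females and 1 lower in males. Of 3 gut genes, 2 were called lower in each sex, where 34.2% of all genes were in females and 2.62% in males. In females 1 of 3 tracheal genes was called higher and 1 of 2 fat body genes lower. The part of these tissues in the changes of the Cpr genes was not tested.

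**Figure D3:**
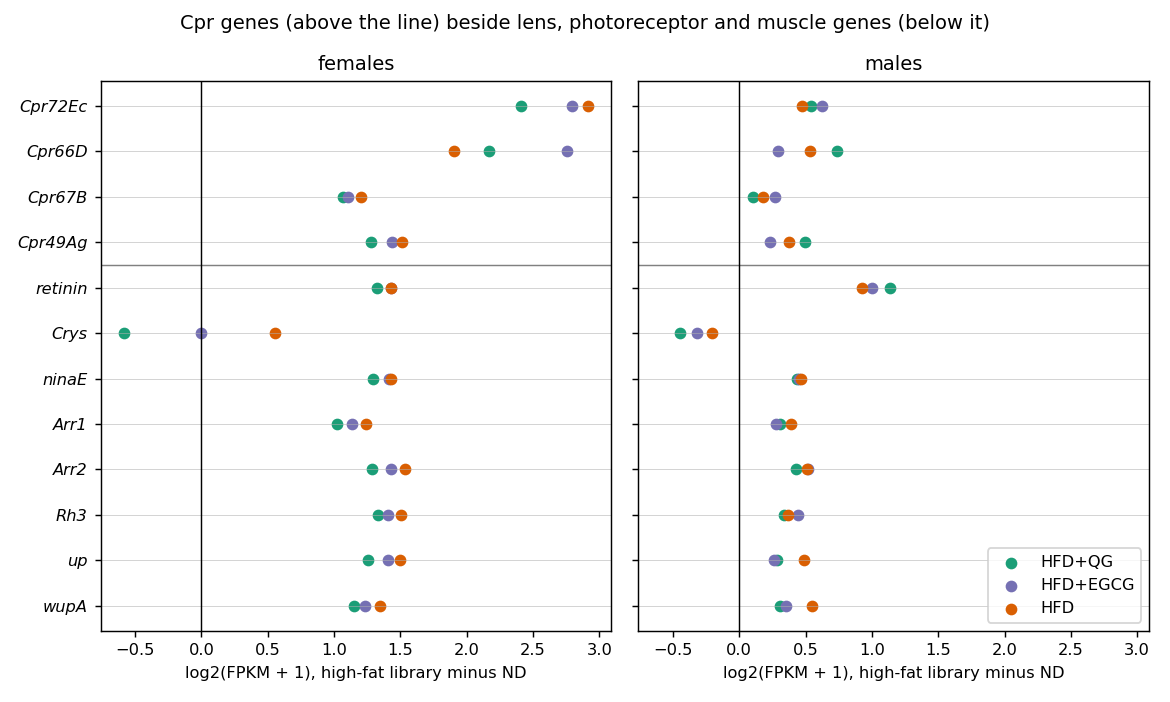
Difference in log2(FPKM + 1) between each high-fat library and the ND library of its sex (horizontal axis; females left, males right) for the 4 Cpr genes with the largest called rises in females among the 12 highest genes, and below the line for lens (retinin, Crys), photoreceptor (ninaE, Arr1, Arr2, Rh3) and muscle (up, wupA) genes. In females the Cpr points lie between 1.07 and 2.91 and those of Crys between -0.58 and 0.55.

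Cpr67B (3L:9404797-9406174, plus strand) is annotated with embryonic and larval peaks. It had 83 (HFD+QG), 85 (HFD+EGCG) and 91 FPKM (HFD) in females, against 39 FPKM in female ND. In males it had 56 (HFD+QG), 63 (HFD+EGCG) and 59 FPKM (HFD), against 52 FPKM in male ND. The female high-fat libraries were close to each other and all above ND, 2.21-fold on the mean (log2 change 1.13 ± 0.08, limma adjusted p = 0.00091), while the male change of 0.19 missed the threshold (limma, adjusted p = 0.218). Cpr49Ag, which is annotated with embryonic, larval and pupal peaks, had 16 (HFD+QG), 18 (HFD+EGCG) and 19 FPKM (HFD) against 6 FPKM (ND) in females, and 23 (HFD+QG), 19 (HFD+EGCG) and 21 FPKM (HFD) against 16 FPKM (ND) in males. It was higher than ND in all 6 high-fat libraries, with a log2 change of 1.41 ± 0.13 in females (limma, adjusted p = 0.00175) and 0.37 ± 0.13 in males (limma, adjusted p = 0.151).

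Cpr57A, a gene with a late larval peak in the annotation, had 18 (HFD+QG), 19 (HFD+EGCG) and 19 FPKM (HFD) against 10 FPKM (ND) in females, and 15 (HFD+QG), 21 (HFD+EGCG) and 14 FPKM (HFD) against 14 FPKM (ND) in males. The female change was 0.84 ± 0.22 (limma, adjusted p = 0.0275), and the call was lost without female HFD+QG (limma, adjusted p = 0.062), HFD+EGCG (0.0711) or HFD (0.0722) or male HFD+QG (0.0506). Its annotated exons lie wholly within those of Obp57d on the same strand, a gene listed at 0 in all 8 libraries, and how reads were divided between them is not given in the sources used here. Cpr47Ee passed narrowly in females, with a log2 change of 0.55 (limma, adjusted p = 0.0483), and not without female HFD+QG (limma, adjusted p = 0.0854), HFD+EGCG (0.104) or HFD (0.0887) or male HFD+QG (0.0881). Cpr73D, at 1 FPKM in each female high-fat library and 0 in ND, was called on a step of 1 FPKM in rounded values (limma, adjusted p = 0.0031). In males it was called higher only without male HFD (limma, adjusted p = 0.00394, against 0.0688 with all libraries), and it shares 9.7% of its exon bases with Nc73EF on the other strand. Nc73EF had 198 (HFD+QG), 242 (HFD+EGCG) and 209 FPKM (HFD) against 103 FPKM (ND) in females. In males Nc73EF had 324 (HFD+QG), 302 (HFD+EGCG) and 362 FPKM (HFD) against 274 FPKM (ND). Whether reads of Nc73EF entered the Cpr73D values was not tested. Cpr49Aa and Cpr76Bd, both under 5 FPKM in every library, were called higher in females too. Cpr49Aa had 1 (HFD+QG), 2 (HFD+EGCG) and 2 FPKM (HFD) against 0 (ND) in females, and 3 (HFD+QG), 3 (HFD+EGCG) and 2 FPKM (HFD) against 1 FPKM (ND) in males (limma, adjusted p = 0.0167 in females). Cpr76Bd had 1 FPKM in each female high-fat library against 0 in female ND, and 2 (HFD+QG), 2 (HFD+EGCG) and 1 FPKM (HFD) against 1 FPKM (ND) in males (limma, adjusted p = 0.0238 in females).

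Cpr47Ef and Cpr62Ba, adjacent to Cpr47Ee and Cpr62Bb, had similar differences without a call. Cpr47Ef had 9 (HFD+QG), 12 (HFD+EGCG) and 15 FPKM (HFD) against 6 FPKM (ND) in females, and 17 (HFD+QG), 13 (HFD+EGCG) and 16 FPKM (HFD) against 10 FPKM (ND) in males (limma, adjusted p = 0.0521 in females and 0.274 in males). The female change was called without female HFD+QG (limma, adjusted p = 0.0268), with a filter at 5 FPKM in a library of each sex (0.0328), after rescaling (0.0322) and after median-centring (0.0217). Cpr62Ba had 7 (HFD+QG), 9 (HFD+EGCG) and 11 FPKM (HFD) against 4 FPKM (ND) in females, and 9 (HFD+QG), 13 (HFD+EGCG) and 7 FPKM (HFD) against 7 FPKM (ND) in males (limma, adjusted p = 0.0733 in females and 0.576 in males), and its female change was called under the same filter (limma, adjusted p = 0.0486), after rescaling (0.0477) and after median-centring (0.0315). In both genes the female high-fat libraries lay above ND, but they were as far apart from each other as HFD+QG was from ND or farther.

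On the lower side, Cpr49Ae fell in both sexes. With 20 FPKM in each female high-fat library against 32 FPKM in female ND, it fell by 0.65 on the log2 scale (SE 0.04, limma adjusted p = 0.000581), and in males it fell by 0.41 (SE 0.04, limma adjusted p = 0.0135). The deposited values are rounded to whole FPKM, and the male call is lost when libraries are rescaled to a common sum (limma, adjusted p = 0.0562). Cpr65Au fell in females, by 0.63 ± 0.18 (limma, adjusted p = 0.0352), a call lost without female HFD+QG (limma, adjusted p = 0.0836), HFD+EGCG (0.0595) or HFD (0.0885) or male HFD+QG (0.0699), while its male change of -0.22 missed the threshold (limma, adjusted p = 0.5). Cpr49Ab had a female change of -0.75 and a male change of -0.60, without a call in either sex (limma, adjusted p = 0.214 in females and 0.468 in males). The fit takes a single spread per gene over both sexes. Male high-fat libraries of this gene ran from 22 to 51 FPKM and female ones from 48 to 62 FPKM.

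Counted over the fit, 9 of 21 members were called higher and 2 lower in females, where limma called 22.6% of all genes higher and 34.2% lower (56.9% either way). In males the count was 0 higher and 1 lower, where 5.65% of all genes were called higher and 2.62% lower. With so many genes called in females, on a single ND library, a call sets no gene apart by itself. By size alone, genes were counted as 2-fold apart at a difference of 1 or more on the log2(FPKM + 1) scale, taken for high-fat diets as the mean over the 3 libraries. On that scale 5 of the 17 described genes detected in females were at least 2-fold higher (Cpr72Ec, Cpr66D, Cpr49Ag, Cpr67B and Cpr73D), against 10.8% of the 10254 genes detected in females, and 1 was lower (Cpr65Ea), against 3.94%. The counts for Cpr73D and Cpr65Ea rest on the added 1, since female ND was at 0 for Cpr73D and the high-fat libraries were at 0 for Cpr65Ea. Cpr62Ba (mean 9 FPKM on high-fat diets against 4 FPKM on ND) and Cpr47Ef (mean 12 FPKM on high-fat diets against 6 FPKM on ND) were 2.25-fold and 2.0-fold higher in plain FPKM but not on that scale. All 3 high-fat libraries lay above ND in 10 of the 17 and below it in 5, where 31.1% and 49.9% of all genes did. The median difference was 0.55 for the 17 genes and -0.15 for all genes. In males, 0 of 19 described genes were 2-fold apart in either direction, where 1.22% of 13304 genes were higher and 2.28% lower. All 3 male high-fat libraries lay above ND in 7 of the 19 and below it in 4, where 26.8% and 21.2% of all genes did, and the median was 0.19 (0.0 for all genes).

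**Figure D4:**
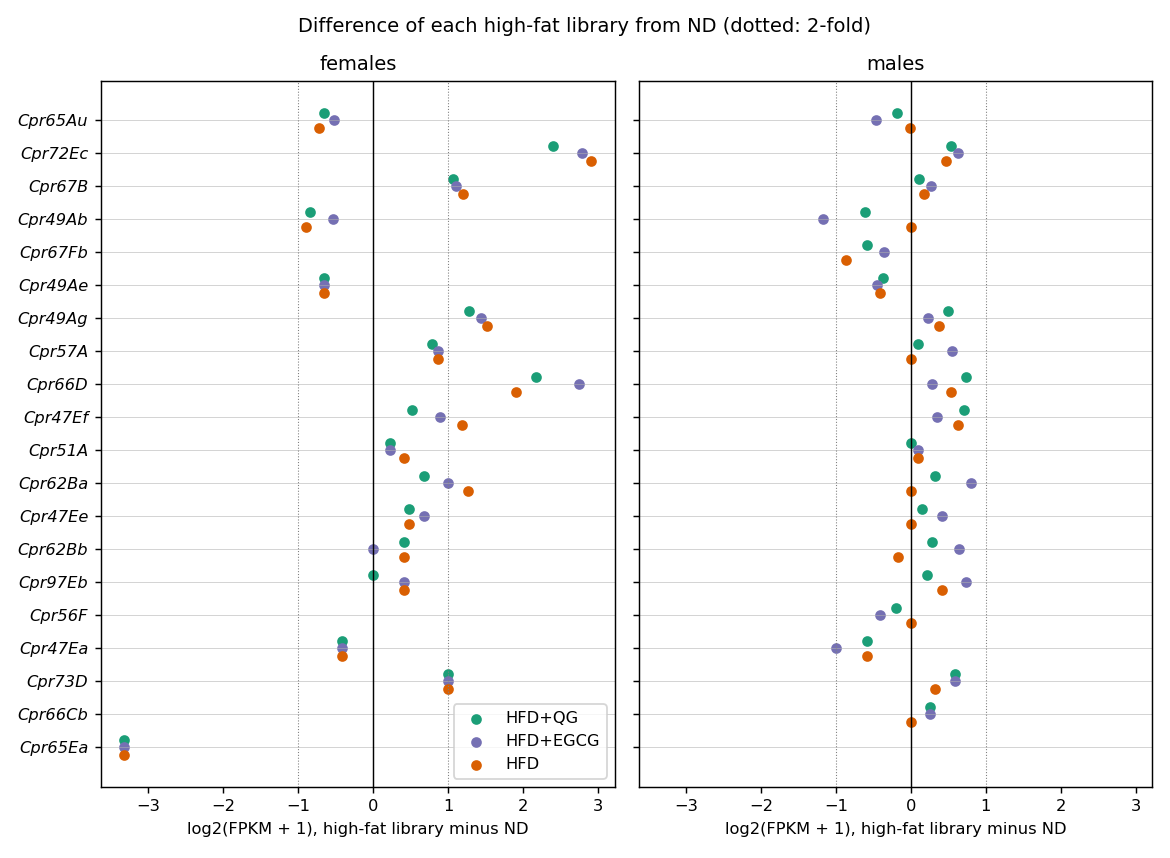
Difference in log2(FPKM + 1) between each high-fat library and the ND library of its sex (horizontal axis; females left, males right) for each described Cpr gene above 0 in that sex (vertical axis, ordered by mean FPKM); dotted lines mark a difference of 1 in either direction. Female points of Cpr72Ec and Cpr66D lie beyond 1.9, and male points lie within 1 of 0 except Cpr49Ab on HFD+EGCG, at -1.18, with Cpr47Ea on the same diet at the dotted line.

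The sexes differed in this response for 5 members by the interaction term. Females minus males, the log2 change differed by 2.16 for Cpr72Ec (limma, adjusted p = 0.00641), by 0.94 for Cpr67B (limma, adjusted p = 0.00556), by 1.04 for Cpr49Ag (limma, adjusted p = 0.0133) and by 1.76 for Cpr66D (limma, adjusted p = 0.0451). It differed by -0.25 for Cpr49Ae (limma, adjusted p = 0.0238). Of the 21 members, 4 were thus called higher and 1 lower, where 16.8% and 25.9% of all genes were. The Cpr66D call held in 7 of 14 alternative settings. It was lost without female HFD+QG (limma, adjusted p = 0.0839), without male HFD+QG (0.0722), HFD+EGCG (0.0848) or HFD (0.0945), with a pseudocount of 5 (0.0737), with no filter (0.0869) and with a filter at 1 FPKM in any library (0.0653). Calls were gained for Cpr57A and Cpr47Ea without male HFD+EGCG (limma, adjusted p = 0.0104 for Cpr57A and 0.0339 for Cpr47Ea) and for Cpr73D without male HFD (0.006) or with a pseudocount of 0.5 (0.0129), and the Cpr49Ae call is lost after rescaling and after median-centring.

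When the sexes were pooled as repeats of a diet, with sex as a term, limma called 0 members and 0.0% of all genes for high-fat diets against ND and for HFD alone against ND. At an unadjusted p under 0.05 there were 12 of 21 members and 1709 of 9848 genes for high-fat diets against ND, and 7 members and 1336 genes for HFD against ND. The lowest adjusted p of a member was 0.181 (limma) in the first of these comparisons and 0.292 (limma) in the second, both for Cpr49Ae. The pooled log2 change of Cpr49Ae on high-fat diets was -0.53 ± 0.11, and that of Cpr72Ec was 1.63 ± 0.49, a mean of unequal changes in the sexes. Without the male ND library, the ND side of these fits is female ND alone, so they no longer pool the sexes. The high-fat change of Cpr72Ec is then that of females, 2.70.

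For HFD alone against ND by size on the log2(FPKM + 1) scale, 7 of 17 described genes in females were at least 2-fold higher and 1 lower, where 14.8% and 7.19% of all genes were. In males 0 of 19 were 2-fold apart either way, where 2.49% of genes were higher and 3.56% lower. Besides the 5 named for the mean of the high-fat diets, the genes past this threshold were Cpr47Ef, with 15 FPKM on HFD against 6 FPKM on ND, and Cpr62Ba, with 11 FPKM on HFD against 4 FPKM on ND.

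The polyphenols were compared with HFD alone. The described Cpr genes of females stayed within 2-fold of HFD under both compounds, on the same scale. For HFD+QG, limma called 0 members with sexes pooled (0.0% of all genes, 107 genes and 0 members at an unadjusted p under 0.05). For HFD+EGCG it also called 0 members (0.0% of all genes, 102 genes and 0 members at an unadjusted p under 0.05). These pooled fits have 2 libraries a side, and intervals are wide: for Cpr72Ec, HFD+QG minus HFD was -0.22 on the log2 scale with a 95% interval of -1.73 to 1.29, and for Cpr49Ae it was 0.02 with an interval of -0.31 to 0.35. For HFD+EGCG minus HFD the intervals were -1.50 to 1.53 for Cpr72Ec and -0.35 to 0.31 for Cpr49Ae.

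In females, HFD+QG was 2-fold or more above or below HFD in 0 of 17 described genes, where 2.56% of all genes were higher and 2.73% lower, and the median difference was 0.0. The values ran from -0.68 for Cpr47Ef to 0.26 for Cpr66D. In males it was 2-fold apart in 0 of 19, where 2.01% of genes were higher and 2.52% lower, with a median of 0.08. HFD+EGCG was 2-fold apart from HFD in 0 of 17 described genes in females, where 2.12% of genes were higher and 2.89% lower, and the largest difference was that of Cpr66D, with 26 FPKM on HFD+EGCG against 14 FPKM on HFD (0.85 on the log2 scale). In males, 1 of 19 was 2-fold lower and 0 higher, where 3.01% of genes were lower and 2.07% higher. This was Cpr49Ab, with 22 FPKM on HFD+EGCG against 51 FPKM on HFD, a difference of -1.18. Female values of Cpr49Ab went the other way, with 62 FPKM on HFD+EGCG against 48 FPKM on HFD, and with 1 library per group the difference has no replicate check.

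Cpr62Ba and Cpr62Bb lie next to each other at 62B and each had 13 FPKM on HFD+EGCG against 7 FPKM on HFD in males. In females both had the opposite sign, with 9 FPKM on HFD+EGCG against 11 FPKM on HFD for Cpr62Ba and 2 FPKM on HFD+EGCG against 3 FPKM on HFD for Cpr62Bb. The pooled changes were 0.27 ± 0.33 and 0.20 ± 0.31 (SE).

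**Figure D5:**
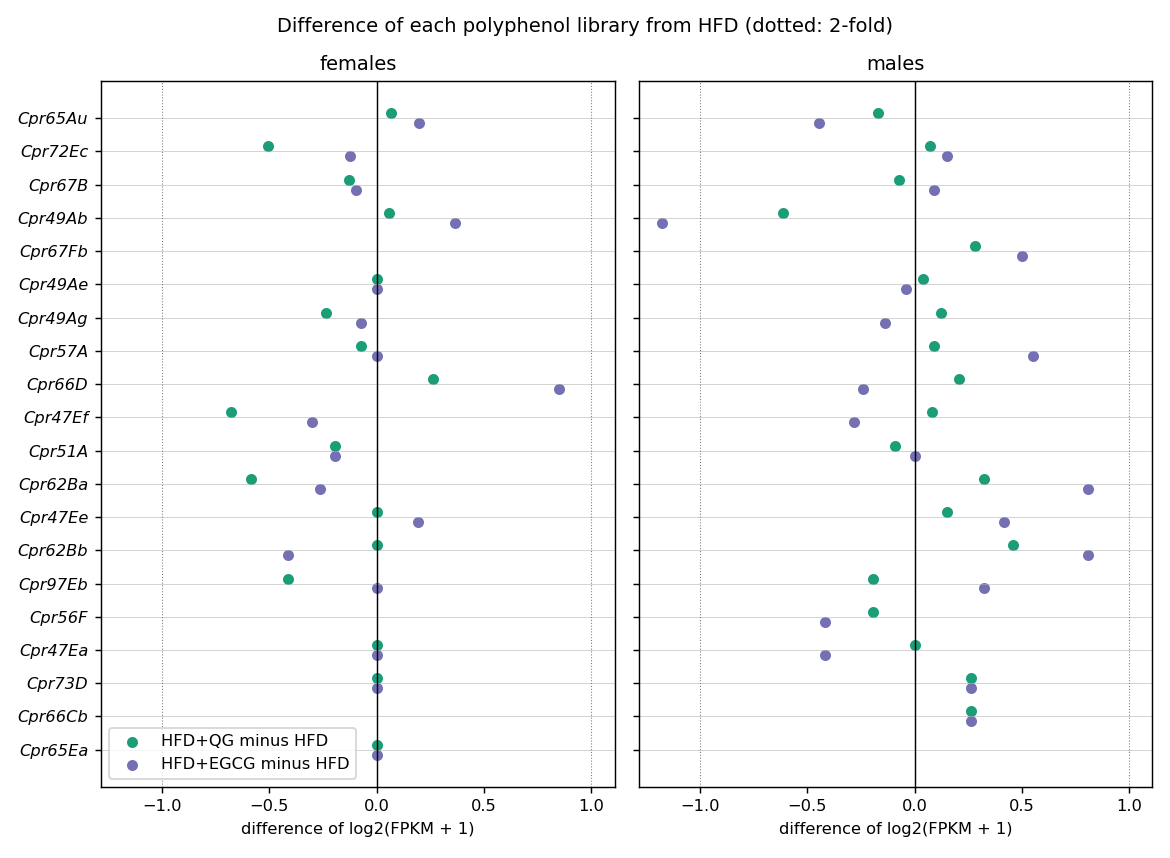
Difference in log2(FPKM + 1) of the HFD+QG and HFD+EGCG libraries from the HFD library of the same sex (horizontal axis; females left, males right) for each described Cpr gene above 0 in that sex (vertical axis, ordered by mean FPKM); dotted lines mark a difference of 1 in either direction. Only Cpr49Ab in males on HFD+EGCG lies beyond them, at -1.18.

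Set against each other, HFD+QG and HFD+EGCG, whose doses are not given, gave no call for a member by limma (0 members and 0.0% of all genes called, 83 genes and 0 members at an unadjusted p under 0.05). In females HFD+QG was below HFD+EGCG in 11 of 17 described genes, above it in 1 and equal in 5, with a median difference of -0.13. None was 2-fold apart, where 2.8% of all genes were higher and 1.97% lower. In males it was above in 8, below in 9 and equal in 2 of 19, and 0 were 2-fold apart, where 2.34% of all genes were higher and 1.98% lower. The largest log2 differences were -0.585 for Cpr66D in females and 0.56 for Cpr49Ab in males. In the pooled fit Cpr97Eb had a log2 difference of -0.46 with a 95% interval of -0.93 to 0.00. For Cpr72Ec the difference was -0.23 with an interval of -1.74 to 1.28. The failure to call a member does not show that the compounds act alike.

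A further 4 described genes were seen in 1 sex only. Cpr67Fb (3L:10894173-10894693, plus strand), annotated with embryonic and early larval peaks, was listed at 0 in all 4 female libraries. In males it had 84 (HFD+QG), 98 (HFD+EGCG), 69 (HFD) and 126 FPKM (ND), exceeded in male ND by Cpr65Au alone, and every high-fat library was below ND. Cpr56F had 6 (HFD+QG), 5 (HFD+EGCG), 7 (HFD) and 7 FPKM (ND) in males and was listed at 0 in females. Cpr66Cb had 5 (HFD+QG), 5 (HFD+EGCG), 4 (HFD) and 4 FPKM (ND) in males and was listed at 0 in females. Over all genes at 5 FPKM or more in any library, 18.7% were listed at 0 in all females and at 5 FPKM or more in a male library, so 3 of 20 is no more than the background.

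Overlapping annotation bears on these male values. The annotated exons of Cpr67Fb are covered to 85.12% by an antisense RNA, and those of Cpr65Au to 93.35%, and both antisense genes were listed at 0. Cpr56F lies across CkIIbeta2 on the other strand without a shared exon base. CkIIbeta2 had 7 (HFD+QG), 6 (HFD+EGCG), 8 (HFD) and 8 FPKM (ND) in males and was listed at 0 in females, nearly the values of Cpr56F. The library kit keeps the strand, but whether the authors' counting used it is not given in the sources used here, so reads of Cpr67Fb and Cpr65Au cannot be told apart from those of their antisense partners with certainty. A value of 0 can also be a failed estimate: Cyp4g1, an abundant gene of the hydrocarbon-producing oenocytes, was listed at 0 in male HFD+QG and HFD+EGCG and at 9726 (HFD) and 9209 FPKM (ND) in the other males.

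Cpr65Ea (3L:7086003-7086608, minus strand), whose annotated peak is embryonic, had 9 FPKM in female ND and was listed at 0 in the other 7 libraries. Of 11215 genes at 5 FPKM or more in any library, 16 (0.143%) shared this pattern. Its neighbour Cpr65Eb was listed at 0 in all 8 libraries.

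Cpr47Ea, the last of the described genes, had 2 FPKM in each female high-fat library against 3 FPKM in female ND, and 3 (HFD+QG), 2 (HFD+EGCG) and 3 FPKM (HFD) against 5 FPKM (ND) in males. It was lower than ND in all 6 high-fat libraries without a call (limma, adjusted p = 0.104 in females and 0.0742 in males). Without male HFD+EGCG it was called lower in both sexes (limma, adjusted p = 0.00206 in females and 0.00615 in males), and 19.66% of its exon bases are shared with Or47a, an odorant receptor gene on the other strand listed at 0.

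Other genes of cuticle formation were counted from lists drawn up for this purpose. The enzymes of tanning and pigmentation, which harden and darken cuticle from tyrosine, were the list with the most one-sided count. In females 6 of 10 fitted genes were called higher on high-fat diets and 0 lower, where 22.6% of all genes were called higher and 34.2% lower, with a median log2 change of 0.75. In males 0 were called higher and 1 lower, with a median of -0.12. The interaction term called 7 of 10, all higher in females minus males, where 16.8% of all genes were. ple, the tyrosine hydroxylase that opens the pathway, had 25 (HFD+QG), 22 (HFD+EGCG) and 22 FPKM (HFD) against 8 FPKM (ND) in females, and 19 (HFD+QG), 16 (HFD+EGCG) and 18 FPKM (HFD) against 17 FPKM (ND) in males. It rose in females by 1.41 (limma, adjusted p = 0.00128). Its product dopamine is also a transmitter of neurons, and t (tan) serves histamine recycling in the eye as well as pigmentation. In females t had 17 (HFD+QG), 18 (HFD+EGCG) and 19 FPKM (HFD) against 10 FPKM (ND), a rise of 0.79 (limma, adjusted p = 0.00158). Pu, a GTP cyclohydrolase needed for tyrosine hydroxylation and eye pigment, rose by 0.72 in females (limma, adjusted p = 0.00394), and b, which supplies beta-alanine, rose by 1.19 (limma, adjusted p = 0.00464).

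The remaining lists were mixed, and their counts stand beside the 22.6% of all genes called higher and 34.2% called lower in females. For chitin synthesis and assembly, 2 of 11 fitted genes were called higher in high-fat females and 2 lower. Gfat1, which starts the hexosamine pathway that feeds chitin, rose by 0.85 (limma, adjusted p = 0.00734). Gfat2 and mmy, at higher levels, had changes of -0.23 and -0.20. Of the 11 genes, 5 had a female change above 0 and 6 below. For chitinases and chitinase-like proteins, 2 of 12 were called higher and 1 lower. Idgf3, a secreted growth factor of the chitinase-like family, had 118 (HFD+QG), 151 (HFD+EGCG) and 133 FPKM (HFD) against 68 FPKM (ND) in females, a rise of 0.96 (limma, adjusted p = 0.00612). A list of chitin-binding proteins mixed obstructor proteins with peritrophins, of which Peritrophin-A is also on the list of gut genes. On it 2 of 7 were called higher and 2 lower. The obstructor gene obst-E was up by 0.82 (limma, adjusted p = 0.00488) and Peritrophin-15b down at -1.38 (limma, adjusted p = 0.0121). For genes of the moulting hormone response 2 of 11 were called higher and 4 lower, usp, the partner of the ecdysone receptor, and ftz-f1 among the lower ones. In males these 4 lists had 0 members called higher and 2 called lower in all.

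Relatives of the Cpr genes were also listed at 0 for the most part. Of 28 Rebers-Riddiford genes under other names (larval, pupal and related cuticle proteins, Crys and resilin), 21 were listed at 0 in all 8 libraries and 3 reached 5 FPKM, namely Crys, Pcp and Ccp84Ad. Of 5 fitted, 0 were called higher and 1, Pcp, lower in high-fat flies of either sex. Over all genes, 22.6% were called higher and 34.2% lower in females, and 5.65% and 2.62% in males. Pcp had 4 (HFD+QG), 4 (HFD+EGCG) and 5 FPKM (HFD) against 6 FPKM (ND) in females. In males it was listed at 0 on each high-fat diet against 1 FPKM (ND), a step of 1 FPKM in rounded values. Of 25 Tweedle genes, another cuticular protein family, 16 were listed at 0. Of 4 fitted, 1 was called higher and 1 lower in high-fat females, with a median log2 change of -0.63. In males 1 was called higher and 0 lower. Twdlalpha had 17 (HFD+QG), 16 (HFD+EGCG), 19 (HFD) and 16 FPKM (ND) in males and was listed at 0 in females, as Cpr67Fb was. TwdlF had 18 FPKM in female ND and was listed at 0 in the other 7 libraries, the pattern of Cpr65Ea. TwdlT had 5 (HFD+QG), 6 (HFD+EGCG) and 6 FPKM (HFD) against 2 FPKM (ND) in females, a rise of 1.15 (limma, adjusted p = 0.0024), and 8 (HFD+QG), 7 (HFD+EGCG) and 7 FPKM (HFD) against 7 FPKM (ND) in males.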

How the data were processed

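RNA-seq of fly bodies without wings or legs was analysed from 8 libraries, 1 per diet and sex. The authors deposited FPKM per FlyBase transcript, rounded to whole numbers and treated here as a score; the submitters' processing notes list CASAVA 1.8.2, TopHat2 2.1.1 and Cuffdiff 2.2.1. Parameters, genome build and scaling between libraries or tables are not given in the sources used here. Depth is unknown, so no counting interval can be given, and a transcript at 0 stands for anything under 0.5 FPKM or a failed estimate.

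FPKM were summed per gene. Coordinates are those of the tables, equal to the BDGP6.54 annotation for all 70 members. Changes are differences of log2(FPKM + 1), which understate those of low genes; no fold in plain FPKM is given against a library at 0. Genes with 1 FPKM or more in at least 1 library of each sex (9848, of them 21 members) were fitted with limma 3.58.1 (R 4.3.3, trended prior, Benjamini-Hochberg over all genes fitted, calls under 0.05). A fit with sex and diet as terms has 3 residual degrees of freedom, and a fit of sex, high-fat diet and their interaction has 4. Only the pooled comparison of high-fat diets with ND was tested on simulated data, with the same change in both sexes. The changes within a sex, the interaction and the comparison of the sexes were not tested in that way. Counts of 2-fold genes take a difference of 1 on that log2 scale, genes at 0 on one side included, over all genes at 1 FPKM or more in a library of the sex. Values in all libraries are given for the 12 members with the highest mean, members called, members seen in 1 sex and the rest of the 20 described; genes of other lists are named among the 4 highest of their list. The members and lists were chosen with earlier results of these data known. Of the list names, TwdlA, AANAT1, stw and Acp70A were not matched. Pseudocounts, filters, scalings, the prior and each library left out in turn were tried as alternatives, though a change within a sex cannot be fitted without its ND library.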

Additional observations from a re-analysis of the deposited data

Results flagged for a closer look

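For 5 members the change on high-fat diets against ND differed between females and males by the interaction term of the limma fit, in which the ND side is 1 library per sex. Females minus males, the difference in log2 change was 2.16 for Cpr72Ec (2.70 in females and 0.55 in males), 0.94 for Cpr67B (1.13 in females and 0.19 in males), 1.04 for Cpr49Ag (1.41 in females and 0.37 in males), 1.76 for Cpr66D (2.28 in females and 0.52 in males) and -0.25 for Cpr49Ae (-0.65 in females and -0.41 in males). The same term was called for 42.7% of all genes fitted. Photoreceptor and muscle genes had median changes of 1.40 and 1.32 in the same females, and ovary and eggshell genes summed to between 6278 and 12560 FPKM in the female high-fat libraries against 37065 FPKM in female ND. In these females the 3 epidermis and oenocyte genes had a median change of 1.195, and the 3 gut genes of -3.67. The first median is that of grh, with 1 (HFD+QG), 2 (HFD+EGCG) and 1 FPKM (HFD) against 0 (ND), a small step in rounded values. The other epidermis and oenocyte genes changed by 1.61 (Cyp4g1) and 0.46 (Desat1). The part of these tissues in the differences was not tested.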

How the results depend on the processing

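No paired analysis was possible because the labels give no replicate numbers and 1 library per group, and sex was a term of the fit instead. Of 190 values recomputed under alternative settings, 177 stayed within the limits set for them and 13 moved. The number of members called for females against males was 10, and 6 when genes needed 5 FPKM in a library of each sex, 17 with no filter and 19 with 1 FPKM in any library; these filters change which members are fitted. With libraries rescaled to a common sum, the male count for high-fat diets against ND became 0 in place of 1. The median change of the described members in females was 0.55, against 0.26 with a pseudocount of 5 and 0.78 with median-centring; for HFD alone against ND it was 0.49, against 0.26 and 0.76. Median-centring shifts female changes because the median of all fitted genes was -0.14. With 1 library left out at a time, calls ranged from 7 to 12 for high-fat diets against ND in females (7 without HFD+EGCG), from 1 to 3 in males (3 without HFD, 2 without HFD+EGCG), from 4 to 6 for the interaction and from 8 to 14 for females against males. With sexes pooled, calls for high-fat diets against ND and for HFD against ND were most numerous without male ND. The ND side is then female ND alone, so these fits no longer pool the sexes. Calls were 0 throughout for the polyphenols. In females Cpr72Ec, Cpr67B, Cpr49Ag, Cpr66D, Cpr49Ae and Cpr73D were called under every setting run. None of these settings left out female ND, since the female change cannot be fitted without it. The dependence of these calls on that library is therefore untested. Cpr57A was called in 10 of 15 settings. Cpr47Ee and Cpr65Au were each called in 8 of 15 settings, with limma adjusted p up to 0.104 and 0.0885. Among the calls between the sexes, Cpr72Ec held in 11 of 16 settings and Cpr47Ee in 12 of 16. Between the sexes Cpr62Ba was called without female HFD (limma, adjusted p = 0.04995) or male HFD (0.0485), and median-centring added Cpr47Ea (0.0305), Cpr47Ef (0.0206) and Cpr49Ag (0.0409); in females on high-fat diets Cpr51A was called without female HFD (0.0365) and after median-centring (0.0191). Rounding to whole numbers limits genes at a few FPKM.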

Other observations

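Besides Cpr65Ea and TwdlF, 14 genes were at 5 FPKM or more in the female ND library and listed at 0 in the other 7 libraries, with values of 5 to 47 FPKM there. The highest was snoRNA:U14:30Ea at 47 FPKM, followed by CG13159 and CG31813 at 32 FPKM each. The 37 members at 0 in every library hold most genes of the clusters at 65A (6 of 7), 64A (3 of 4) and 76B (3 of 4).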
